A study of Capra hircus with 10 samples.

Results

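The 10 genes described here are the transforming growth factor beta (TGF-beta) ligands TGFB1, TGFB2 and TGFB3, the receptors TGFBR1, TGFBR2 and TGFBR3, and the intracellular mediators SMAD2, SMAD3, SMAD4 and SMAD7. They were taken by name from the protein-coding symbols of the deposited transcript table, by a rule that sets no threshold on a measured value. The table holds 20587 such symbols, and 20 of its transcripts belong to the 10 genes. All 10 genes and all 20 transcripts reached the minimum level for testing, 0.1 FPKM or more in 5 or more ovaries, as did 15359 genes in all.

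The samples were 10 whole ovaries of Anhui white goats, 5 in the luteal phase, when a corpus luteum is present (called luteal ovaries here), and 5 in the follicular phase, when follicles grow toward ovulation (follicular ovaries). The ovaries came from a slaughterhouse, and no treatment, genotype or age is given for either phase. Ribosomal RNA-depleted RNA from each ovary was sequenced, and levels are given as FPKM (fragments relative to the length of the transcript and the size of the library), summed over the transcripts of a gene. The sources used here do not say whether the ovaries of a phase came from separate animals, so the p-values measure the spread between these ovaries only. Sequencing depth per ovary is unknown from FPKM, so no counting error is given.

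TGF-beta ligands are secreted in a latent form bound to the matrix and act after release. An active ligand binds the type II receptor TGFBR2, which recruits and phosphorylates the type I receptor TGFBR1, and the coreceptor TGFBR3 (betaglycan) presents ligand to them and also binds inhibins. TGFBR1 then phosphorylates SMAD2 and SMAD3, which enter the nucleus together with the shared partner SMAD4, while SMAD7 blocks the receptor and is itself induced by the signal. In the ovary, this family takes part in follicle growth, steroid synthesis, matrix formation and the growth of blood vessels in the corpus luteum.

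The phase labels were set against marker genes. The summed FPKM of 7 corpus luteum markers was 5911 to 8085 in the luteal ovaries and 150 to 200.3 in the follicular ovaries. Endothelial markers summed to 240 to 314 against 124 to 154, smooth muscle markers to 570 to 1042 against 1300.3 to 1658, and stromal markers to 3389.9 to 5680.1 against 2659 to 3774. The stromal markers did not move together: of 8, 3 were luteal-higher and 2 follicular-higher at a limma adjusted p under 0.05. Among all genes, 6711 (43.7%) passed limma's test (adjusted p under 0.05), with 2439 of these luteal-higher and 4272 follicular-higher. The split was 2910 to 3055 once all ovaries were shifted to 1 median and 2899 to 2665 after rescaling to TPM. The median log2 fold change of all genes, luteal minus follicular, was -0.14, and -0.05 after the shift.

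Between the phases, the receptor and SMAD levels changed in opposite directions within each role. TGFBR2 and SMAD7 were higher in every luteal ovary than in any follicular ovary, and SMAD2 and SMAD4 were lower. TGFB3 also rose in the luteal phase and TGFBR3 fell, with overlap between the phases, while TGFB1, TGFB2, TGFBR1 and SMAD3 did not pass the test. Altogether, 6 of the 10 genes were called, 3 luteal-higher and 3 follicular-higher, beside 43.7% of all genes tested (15.9% and 27.8% in those directions). The phases did not overlap for 4 of the 10 genes, 2 in each direction, beside 28.4% of all genes (11.2% and 17.2%). Over only 10 genes these counts are a description, and their median log2 fold change of -0.14 equalled that of all genes. After the shift to a common median, 6 genes were called, 4 higher and 2 lower in the luteal phase.

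**Figure D1:**
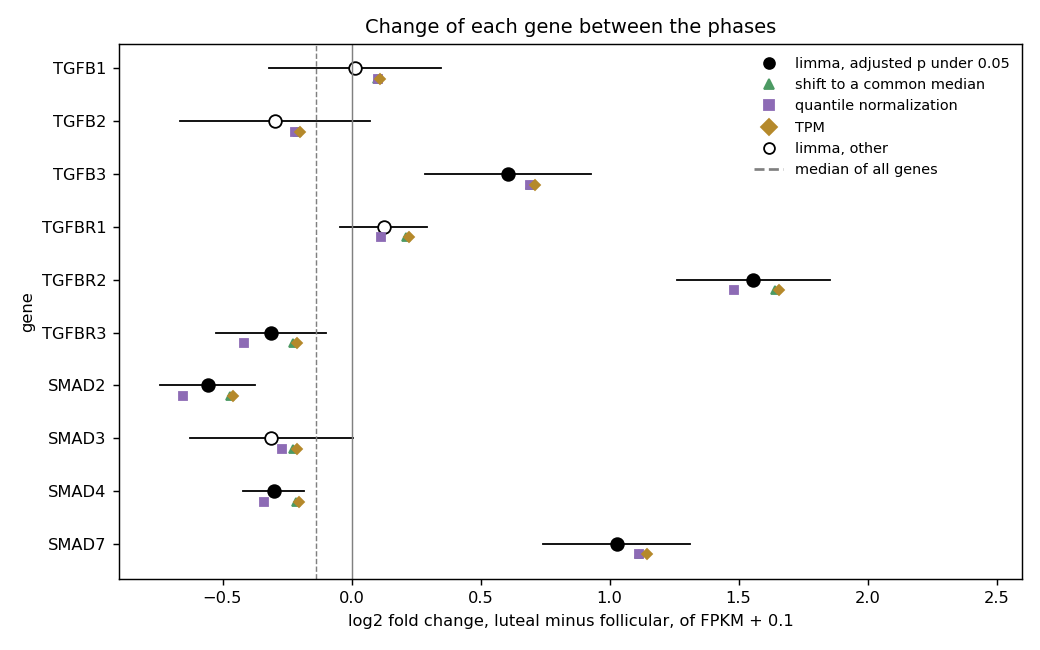
Log2 fold change of FPKM + 0.1, luteal minus follicular, for each of the 10 genes (black or white circles, limma, 5 ovaries a phase, lines are 95% confidence intervals), with the values under 3 other scalings as small coloured marks and the median of all genes as a dashed line. TGFBR2 at 1.56 and SMAD7 at 1.03 lie far to the right, and SMAD2 at -0.56 lies farthest to the left.

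Among the ligands, TGFB3 alone passed the test. Its FPKM was 8.60, 9.34, 8.01, 7.44 and 5.41 in the luteal ovaries 1 to 5 and 5.09, 4.48, 5.44, 4.27 and 5.73 in the follicular ovaries 1 to 5. Luteal phase ovary 5 was the lowest of its phase and lay below follicular ovaries 3 and 5, so the phases overlapped, whereas the other 4 luteal ovaries were above all follicular ovaries. The means were 7.76 ± 1.49 and 5.01 ± 0.620 (SD, n = 5 each), a ratio of 1.55, and the log2 fold change was 0.61 (SE 0.15, limma adjusted p = 0.00662). Of all genes tested, 10.9% rose more.

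TGFB2, whose FPKM was the highest of the ligands in the follicular phase, had 7.79, 5.89, 7.69, 6.70 and 6.14 in the luteal ovaries and 7.63, 7.58, 7.63, 6.98 and 13.3 in the follicular ovaries. Follicular phase ovary 5 stood apart from the other 9 ovaries, which overlapped between the phases. The log2 fold change of -0.30 (SE 0.17, 95% confidence interval -0.66 to 0.07) did not pass the test (limma adjusted p = 0.172), and it was -0.13 without that ovary. TGFB1 had 2.81, 1.91, 3.12, 2.26 and 2.54 in the luteal ovaries and 2.30, 2.04, 2.79, 2.80 and 2.49 in the follicular ovaries. Its ranges overlapped throughout, and the interval of the log2 fold change ran from -0.32 to 0.35 around 0.01 (limma adjusted p = 0.949).

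The balance of the ligands was compared within each ovary, where the scaling of the ovary cancels. The ratio of TGFB3 to TGFB2 was 0.881 to 1.59 in the luteal ovaries and 0.430 to 0.713 in the follicular ovaries, with no overlap, a log2 difference of 0.92 (exact two-sided permutation p = 0.00794, adjusted p = 0.0127 over the 8 ratios computed). That p is the smallest that 5 ovaries against 5 can give. The ratio of TGFB3 to TGFB1 was 3.19 ± 1.05 and 2.04 ± 0.314 (SD, n = 5 each), a log2 difference of 0.60 with overlap (exact permutation p = 0.0317, adjusted p = 0.0423). This difference missed the threshold when luteal ovary 2 (0.43) or any of follicular ovaries 1 to 5 (0.64, 0.63, 0.59, 0.50 and 0.65) was left out. The smallest exact permutation p that 4 ovaries against 5 can give is 0.0159, so a difference of similar size can miss the threshold. The ratio of TGFB2 to TGFB1 differed by -0.31 on the log2 scale (exact permutation p = 0.159, adjusted p = 0.181).

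Among the receptors, TGFBR2, the type II receptor that binds the ligand, had the largest change of the 10 genes. Its FPKM was 76.8, 67.9, 102, 97.8 and 114 in the luteal ovaries and 30.2, 31.9, 34.0, 26.1 and 31.1 in the follicular ovaries. The lowest luteal ovary was about as far above the highest follicular ovary as that ovary was above 0. The means were 91.7 ± 18.8 and 30.7 ± 2.93 (SD, n = 5 each), a ratio of 2.99, with a log2 fold change of 1.56 (SE 0.14, limma adjusted p = 9.67e-06). Of all genes tested, 3.50% changed more in either direction and 2.81% rose more. TGFBR2 is held by a single transcript of the table, XM_018067217.1.

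Endothelial cells express TGFBR2, and 7 of 8 endothelial markers were also higher in the luteal phase. Their log2 fold changes ran from 0.91 (VWF) to 1.59 (KDR), with CDH5 at 1.41, so that KDR rose about as much as TGFBR2, while CLDN5 had -0.24 (limma adjusted p = 0.0993). Relative to the summed endothelial markers of the same ovary, a sum that does not contain it, TGFBR2 was at 27.2% to 36.2% in luteal and 21.0% to 22.8% in follicular ovaries, a log2 difference of 0.55 without overlap (exact permutation p = 0.00794, adjusted p = 0.0119 over 18 such ratios, which were chosen after the data were seen). Against the stromal and smooth muscle markers, the differences were 1.15 and 2.38. No ratio to the corpus luteum markers was computed. TGFB3 differed by -0.39 against the endothelial markers, the opposite direction to its FPKM (exact permutation p = 0.0556, adjusted p = 0.0667), by 0.21 against the stromal markers (exact permutation p = 0.230, adjusted p = 0.259) and by 1.44 against the smooth muscle markers (exact permutation p = 0.00794, adjusted p = 0.0119). In whole ovaries, a change in the number of cells of a type and a change in RNA per cell cannot be told apart.

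TGFBR3, the coreceptor, fell in the luteal phase. Its FPKM was 61.0, 64.4, 81.7, 58.6 and 61.9 in the luteal ovaries and 78.3, 75.1, 92.5, 75.8 and 83.3 in the follicular ovaries. Luteal phase ovary 3 lay within the follicular range and the other 4 luteal ovaries lay below it. The log2 fold change was -0.31 (SE 0.10, limma adjusted p = 0.0230). The call was lost after the shift to a common median (-0.23, limma adjusted p = 0.0878), after rescaling to TPM (-0.21, 0.151) and without follicular ovary 3 (0.0565) or luteal ovary 1 (0.0502), 4 (0.0598) or 5 (0.0516).

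TGFBR1, the type I receptor, had 23.4, 21.5, 23.5, 23.5 and 23.7 in the luteal ovaries and 24.9, 19.3, 19.7, 20.6 and 21.9 in the follicular ovaries. Follicular phase ovary 1 was the highest of all, and the phases overlapped. The log2 fold change was 0.12 (SE 0.08, 95% confidence interval -0.04 to 0.29, limma adjusted p = 0.210), and it passed the threshold only after the shift to a common median (0.21, limma adjusted p = 0.0315).

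The order of the receptors differed between the phases. In the luteal phase, TGFBR2 was above TGFBR3 in 5 of 5 ovaries, although their ranges overlapped, and in the follicular phase TGFBR3 had the highest mean of the 10 genes, although it was above SMAD2 in only 3 of 5 ovaries. The ratio of TGFBR3 to TGFBR2 was 0.544 to 0.949 in luteal and 2.35 to 2.91 in the follicular ovaries, a 3.66-fold difference. The ratio of TGFBR2 to TGFBR1 was 3.15 to 4.80 and 1.21 to 1.72, a log2 difference of 1.43. Neither ratio overlapped between the phases (exact permutation p = 0.00794 and adjusted p = 0.0127 for each).

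**Figure D2:**
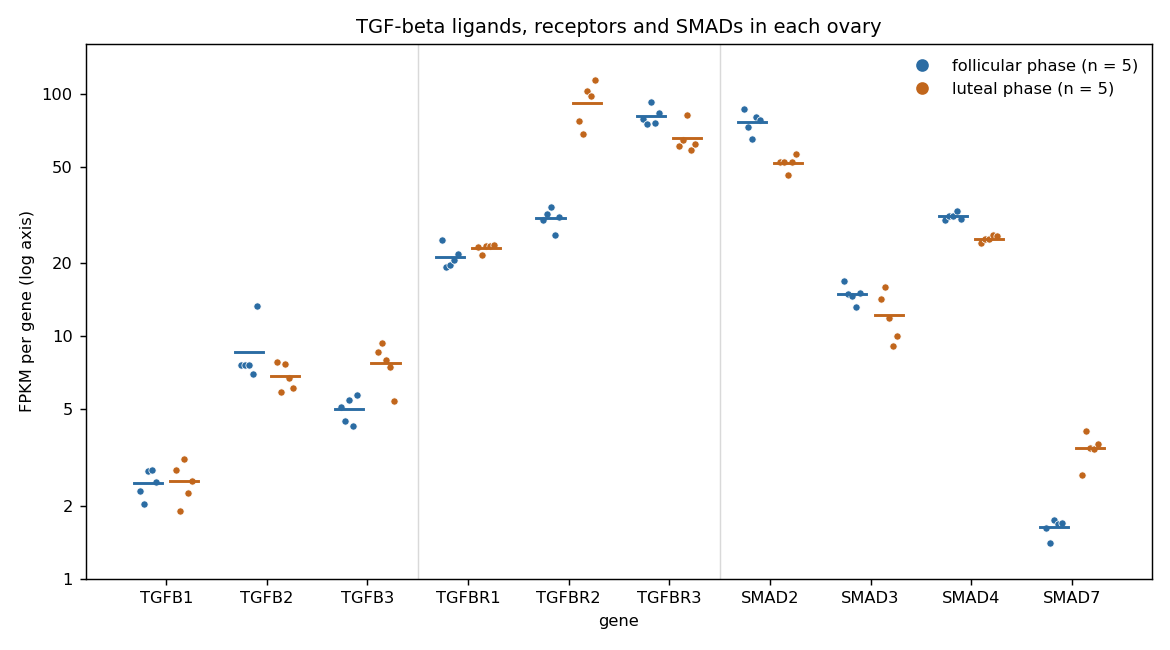
FPKM of each of the 10 genes in each ovary on a log axis, with luteal ovaries in orange and follicular ovaries in blue, and a horizontal line at the mean of each phase (n = 5). The phases are apart for TGFBR2, SMAD2, SMAD4 and SMAD7, and a single follicular ovary is far above the others for TGFB2.

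Among the SMADs, SMAD7 rose while SMAD2 and SMAD4 fell. SMAD7, the inhibitory SMAD, had an FPKM of 2.68, 4.05, 3.46, 3.43 and 3.59 in the luteal ovaries and 1.61, 1.40, 1.75, 1.69 and 1.69 in the follicular ovaries. All luteal ovaries were above all follicular ovaries. The means were 3.44 ± 0.495 and 1.63 ± 0.138 (SD, n = 5 each), a ratio of 2.11, with a log2 fold change of 1.03 (SE 0.13, limma adjusted p = 0.000138), and 5.54% of all genes rose more. Relative to the summed endothelial markers, SMAD7 differed by 0.06 on the log2 scale (exact permutation p = 0.722, adjusted p = 0.722). It differed by 0.66 against the stromal markers and by 1.89 against the smooth muscle markers (exact permutation, adjusted p = 0.0220 and 0.0119).

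SMAD2, which the type I receptor activates, had 52.4, 52.1, 46.0, 52.4 and 56.4 in the luteal ovaries and 86.3, 73.0, 65.1, 80.4 and 77.8 in the follicular ovaries. Even the lowest follicular ovary, number 3, was above the highest luteal ovary. The follicular mean of 76.5 ± 7.98 was 1.48-fold the luteal mean of 51.9 ± 3.72 (SD, n = 5 each), and the log2 fold change was -0.56 (SE 0.08, limma adjusted p = 0.000416).

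SMAD4, the partner shared with the bone morphogenetic protein branch, had the tightest values. They were 24.2, 25.1, 25.1, 26.1 and 25.8 in the luteal ovaries and 30.1, 31.2, 31.2, 32.8 and 30.5 in the follicular ovaries. The phases did not overlap, but the change was small, a log2 fold change of -0.30 (SE 0.05, limma adjusted p = 0.00121), and 54.4% of all genes changed more. SMAD3 had 14.2, 16.0, 11.9, 9.08 and 10.05 in the luteal ovaries and 16.9, 14.9, 14.7, 13.1 and 15.0 in the follicular ovaries. The luteal ovaries were spread more widely, from below the follicular range to within it. The log2 fold change of -0.31 (SE 0.14, 95% confidence interval -0.63 to 0.01) did not pass the test (limma adjusted p = 0.102), although it did without luteal ovary 2 (-0.41, limma adjusted p = 0.0276).

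Smooth muscle markers, all 6 of which were higher in the follicular phase, moved in the same direction as SMAD2, SMAD4 and TGFBR3. Relative to the summed smooth muscle markers, SMAD2, SMAD4 and TGFBR3 differed by 0.26, 0.52 and 0.51 on the log2 scale, the opposite direction (exact permutation, adjusted p = 0.353, 0.0119 and 0.0306 over the 18 ratios). They differed by -0.97, -0.71 and -0.72 relative to the stromal markers and by -1.57, -1.31 and -1.32 relative to the endothelial markers (exact permutation, adjusted p = 0.0119 for each). Of the 8 stromal markers, 3 were called luteal-higher and 2 follicular-higher, so the stromal ratios depend on which markers are summed. The part of these cell types in the results was not tested.

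Within an ovary, the ratio of SMAD7 to SMAD3 was 0.294 ± 0.0771 in luteal and 0.110 ± 0.0151 in follicular ovaries (SD, n = 5 each), a log2 difference of 1.39. That of SMAD7 to SMAD4 was 0.136 ± 0.0182 and 0.0523 ± 0.00456, a difference of 1.37. Neither overlapped (exact permutation p = 0.00794 and adjusted p = 0.0127 for each). For SMAD7 to SMAD4 this was fixed by the single genes, which moved in opposite directions, each without overlap, so its p adds nothing to them. The ratio of SMAD3 to SMAD2 differed by 0.25 with overlap (exact permutation p = 0.206, adjusted p = 0.206).

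**Figure D3:**
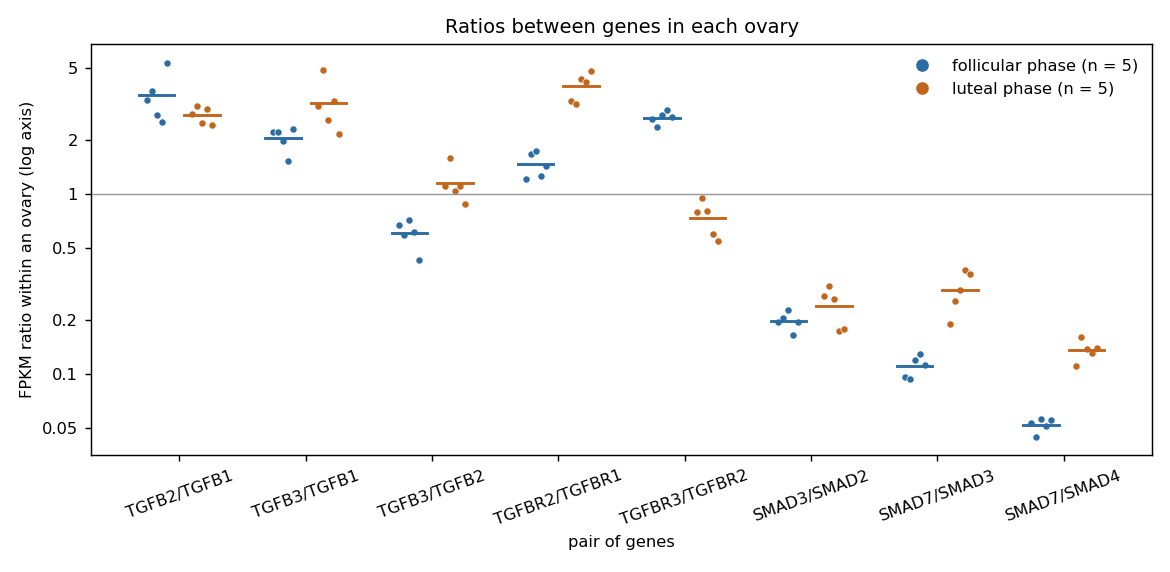
The 8 ratios of FPKM computed within each ovary, on a log axis, with luteal ovaries in orange and follicular ovaries in blue, and a horizontal line at each mean (n = 5). The ratios of TGFB3 to TGFB2, TGFBR2 to TGFBR1, TGFBR3 to TGFBR2, SMAD7 to SMAD3 and SMAD7 to SMAD4 are apart, and the other 3 overlap.

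The levels themselves spanned a wide range. In the luteal phase, the mean FPKM ran from 2.53 for TGFB1 to 91.7 for TGFBR2, and in the follicular phase from 1.63 for SMAD7 to 81.0 for TGFBR3. In both phases, the ligands and SMAD7 were the 4 lowest and TGFBR1 and SMAD3 lay in the middle. In the luteal phase, the ranges of these neighbours overlapped: TGFBR2 and TGFBR3, SMAD3 and TGFB3, TGFB3 and TGFB2, and SMAD7 and TGFB1. In the follicular phase, this held for TGFBR3 and SMAD2, SMAD4 and TGFBR2, and SMAD3 and TGFB2.

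At the level of single transcripts, 7 of the 20 were called, 3 luteal-higher and 4 follicular-higher, beside 17.3% of all 32842 transcripts tested. That share covers coding and noncoding transcripts, while the 20 are all protein-coding, so the shares are not of like groups. After the shift to a common median or rescaling to TPM, 4 were called, 3 higher and 1 lower. The main transcripts of SMAD2 (XM_018039539.1, 93.6% of the gene) and SMAD4 (XM_018039535.1, 94.4%) fell with log2 fold changes of -0.56 and -0.30 (limma adjusted p = 0.00194 and 0.00603), and that of SMAD4 was among the calls lost under both scalings. The main transcript of SMAD7, XM_005697186.3, rose by 1.02 (limma adjusted p = 0.00295).

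TGFBR3 had 3 transcripts, with log2 fold changes in the same direction. The main one, XM_018045752.1, had 45.1 ± 5.71 in luteal and 51.5 ± 4.68 in follicular ovaries (SD, n = 5 each) and was not called (-0.19, limma adjusted p = 0.198). The smaller ones, XM_018045753.1 (16.1 ± 3.36 and 21.6 ± 1.62, -0.45, limma adjusted p = 0.0498) and XM_018045754.1 (4.34 ± 1.295 and 7.95 ± 2.41, -0.86, limma adjusted p = 0.0315), were lower in the luteal phase. Both calls were lost after the shift to a common median (limma adjusted p = 0.124 and 0.0512) and after rescaling to TPM (limma adjusted p = 0.160 and 0.0657). The share of the main transcript was 69.0% ± 2.59 and 63.6% ± 2.68, a difference of 5.43 percentage points that did not pass after adjustment over the 4 shares tested (exact permutation p = 0.0317, adjusted p = 0.127), though it did without follicular ovary 5 (6.45 points, adjusted p = 0.0317). TGFB1 and TGFBR1 were each divided almost equally between a pair of transcripts, and the differences of these shares were 1.61 and 0.35 points (exact permutation p = 0.778 and 0.913, adjusted p = 0.913 for each). That of the main SMAD7 transcript was -1.002 points (exact permutation p = 0.889, adjusted p = 0.913).

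**Figure D4:**
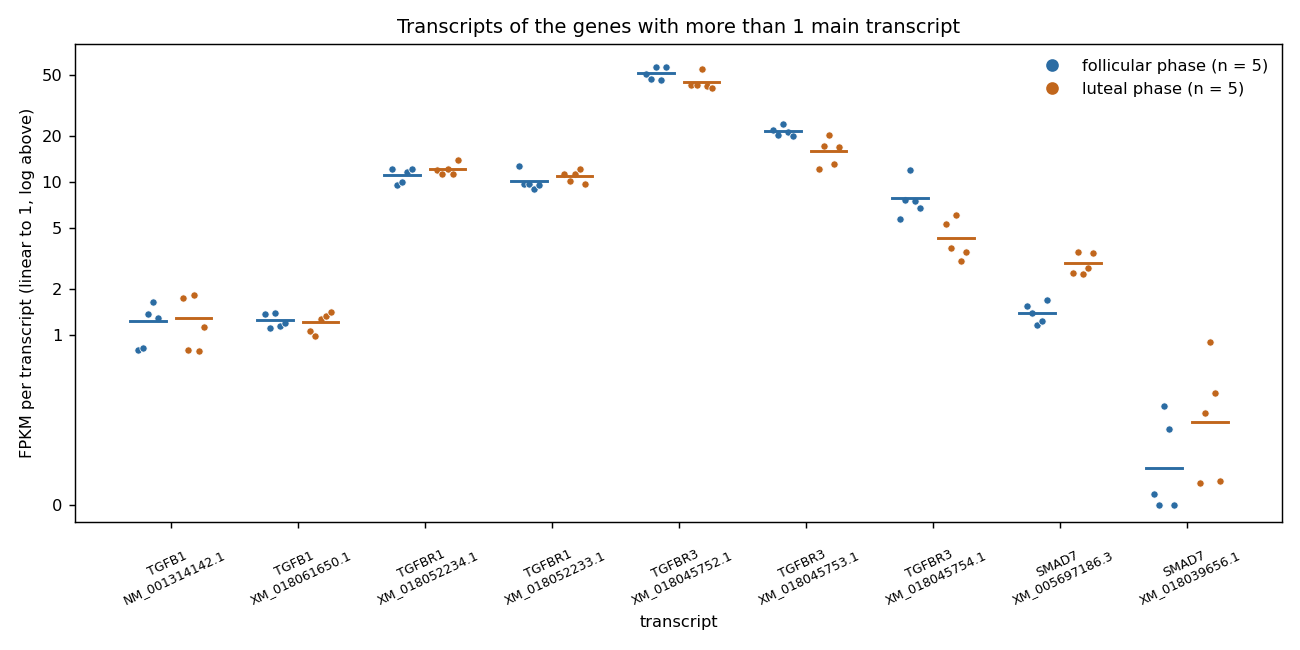
FPKM of each transcript of TGFB1, TGFBR1, TGFBR3 and SMAD7 in each ovary, on an axis that is linear to 1 and logarithmic above, with luteal ovaries in orange and follicular ovaries in blue, and a horizontal line at each mean (n = 5). On this axis the means of the least abundant TGFBR3 transcript lie farther apart than those of the other TGFBR3 transcripts, and the main SMAD7 transcript is apart between the phases.

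Other genes of the pathway were grouped by role, and those named as rising or falling had a limma adjusted p of 0.0113 or lower. Of 23 tested genes for ligand storage and activation, 11 (47.8%) were called, 4 luteal-higher and 7 follicular-higher, with a median log2 fold change of -0.22, beside 43.7% of all genes (15.9% and 27.8% in those directions) and their median of -0.14. The split was 6 to 7 after the shift to a common median and 5 to 7 after rescaling to TPM. ITGB6 was below the filter. LRRC32, which anchors latent TGF-beta at the cell surface, rose from 4.56 ± 0.865 to 10.4 ± 1.98 (1.16), the integrin subunit ITGB5 from 57.3 ± 9.65 to 127 ± 39.2 (1.10) and the microfibril protein FBN1 from 31.1 ± 3.40 to 57.9 ± 11.1 (0.88), each given as follicular and luteal mean FPKM ± SD (n = 5) with the log2 fold change. MMP9, a protease that can release latent ligand, fell from 10.5 ± 3.51 to 2.17 ± 1.22 (-2.28), and the integrin subunit ITGB8 (-0.82), the matrix proteoglycan ASPN (-0.79) and the microfibril protein FBN2 (-0.78) fell too.

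Of 34 genes that regulate the signal, 19 (55.9%) were called, 5 higher and 14 lower in the luteal phase, with a median of -0.19, where all genes gave 43.7% (15.9% and 27.8%) and -0.14 and leaned the same way. The split was 8 to 11 after the shift to a common median and 8 to 10 after rescaling to TPM. ACVRL1 and ENG, a type I receptor and a coreceptor abundant in endothelium, rose by 0.93 and 0.82, and FKBP1A, which binds the type I receptor, by 0.47. The nuclear corepressors of SMADs TGIF1 (-1.06), TGIF2 (-1.02) and SKI (-0.69) fell, as did PMEPA1 (-0.71), which sequesters SMADs and is also induced by TGF-beta.

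Of 30 genes known to respond to TGF-beta, 18 (60.0%) were called, 11 higher and 7 lower in the luteal phase, with a median of 0.11, against 43.7% (15.9% and 27.8%) and -0.14 over all genes. The split was even, 8 to 8, without luteal ovary 3 or without luteal ovary 4. TIMP1, an inhibitor of matrix proteases, rose from 255 ± 71.8 to 6061 ± 560 (4.61) and the matrix protein POSTN from 11.4 ± 2.70 to 213 ± 68.5 (4.19), and LOX, which crosslinks collagen, and the protease ADAM12 rose by 1.26 and 1.05. The cell cycle inhibitor CDKN1A (-1.13) and the smooth muscle genes CNN1 (-1.07) and ACTA2 (-0.81) fell. CTGF, a matricellular protein gene induced by TGF-beta and picked here after its values were seen, had a log2 fold change of -0.03 (limma adjusted p = 0.898). These lists share genes with each other and with the stromal and smooth muscle markers.

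**Figure D5:**
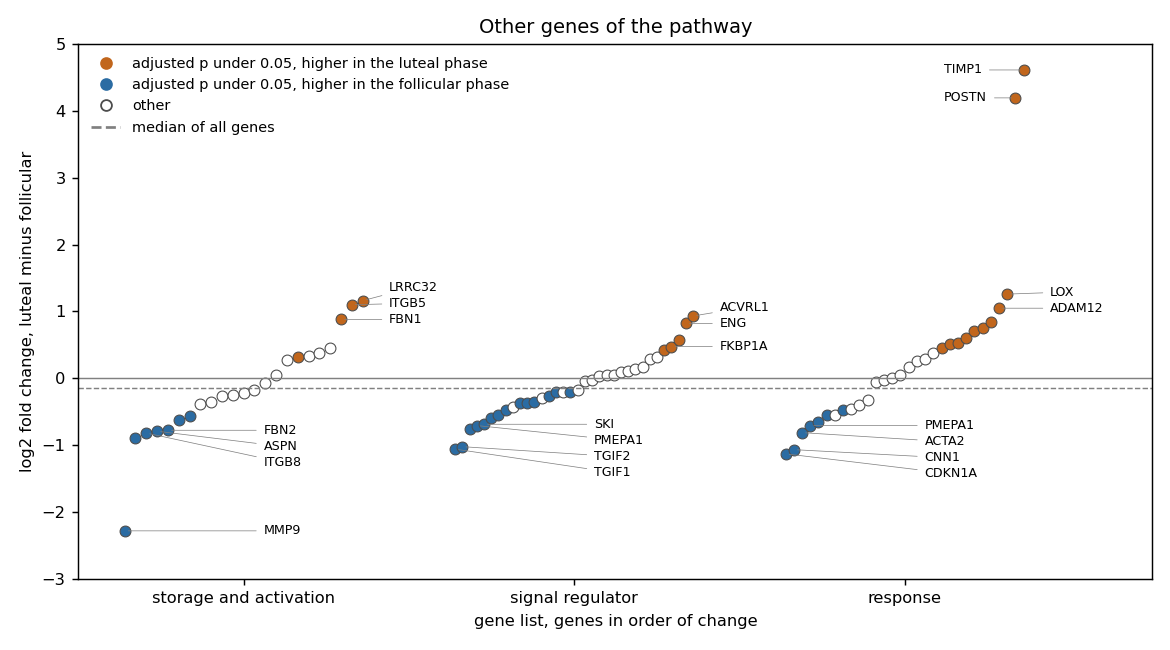
Log2 fold change, luteal minus follicular, of each tested gene in the 3 pathway lists, ordered within each list, with filled circles for adjusted p under 0.05 (orange higher and blue lower in the luteal phase), open circles for the others and a dashed line at the median of all genes. TIMP1 at 4.61 and POSTN at 4.19 lie far above the other genes, and MMP9 at -2.28 lies far below.

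For the member of each role with the largest change, the genes that varied most alike were sought among 12581 genes. The measure was Pearson's r over the 10 ovaries after the mean of each phase was removed. Symbols that start with LOC, which that number includes, were left out of the ranking. With TGFB3 the most alike genes were CORO1B (r = 0.953), METTL14 (0.915) and ARL2 (0.912). With TGFBR2 they were KIFC3 (0.944), PRKD1 (0.923) and PDGFB (0.921), and with SMAD7 they were MGAT4A (0.946), HSPB11 (0.912) and OSCP1 (0.885). All ovaries share the same processing, and with 10 points the highest of so many values is a description only.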

How the data were processed

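A strand-specific paired-end library without ribosomal RNA was made for each of 10 goat ovaries, 5 per phase. HISAT2 (alignment), StringTie (assembly) and Cuffdiff (FPKM of every transcript in every ovary) were the tools the authors used for the deposited values. The genome build is not given in the sources used here, so no coordinates are reported. FPKM keep no read counts, so depth and counting error are unknown. The mRNA and annotated lncRNA tables repeat rows of the transcript table and were not used. The deposited tables had 0 columns without a sample.

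FPKM of protein-coding transcripts were summed by symbol. log2(FPKM + 0.1) was tested with limma 3.58.1 in R 4.3.3 (lmFit, eBayes with trend) over all genes or transcripts that reached 0.1 FPKM in 5 or more ovaries. Differences are luteal minus follicular, tests are two-sided, p-values were adjusted (Benjamini-Hochberg) across the whole table, and 0.05 was the threshold for a call. Fold changes of low genes are understated on this scale. Ratios and transcript shares were compared by exact permutation of the phases (252 arrangements), adjusted within each family.

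The 10 genes, the 3 pathway lists and the 10 marker lists were chosen with earlier results of these data known. Of the marker lists not summed in the report, granulosa cell genes gave 1 higher and 5 lower of 10 tested, theca 1 and 4 of 5, oocyte 0 and 5 of 8, immune 1 and 0 of 7, and surface epithelium 1 and 2 of 6, while the 1 blood gene tested was not called. Of the marker lists summed in the report, corpus luteum genes gave 6 and 1 of 7, and stromal genes 3 and 2 of 8. Some listed genes were matched through RefSeq synonyms (assembly ARS1.2). Genes named in the text are the 10 genes, the transcripts with at least 10% of their gene, up to 4 called genes per direction and pathway list with the largest change among those whose phases do not overlap, and the 3 most similar genes for 1 gene of each role. XM_018045754.1, CTGF, the single endothelial markers and the lncRNAs fall outside this rule and were named after their values were seen. As alternatives, the pseudocount was set to 1 or 0.01, the filter was removed or raised to 0.5, values were shifted to a common median, quantile-normalized or rescaled to TPM, the trend was dropped, a replicate block was added, each gene was reduced to its most abundant transcript, and every ovary was left out in turn. The ratios to marker sums were added after the data were seen. Python 3.11.15 with scipy 1.17.1 was used for the permutation tests.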

Additional observations from a re-analysis of the deposited data

Results flagged for a closer look

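In 3 of the 20 groups formed by 10 genes and 2 phases, 1 ovary lay farther from the others of its phase than Dixon's 95% limit allows, where chance gives about 1 in 20 groups. TGFB2 was 13.3 FPKM in follicular ovary 5 and 6.98 to 7.63 in the others. TGFBR1 was 21.5 in luteal ovary 2 and 23.4 to 23.7 in the others. TGFBR3 was 81.7 in luteal ovary 3 and 58.6 to 64.4 in the others, and its log2 fold change without that ovary was -0.39 (limma adjusted p = 0.00249).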

How the results depend on the processing

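Under the 20 alternatives of the methods, 6 of the 10 genes (TGFB2, TGFB3, TGFBR2, SMAD2, SMAD4 and SMAD7) kept their direction and their side of the threshold, with TGFBR2 at 1.47 to 1.66 and SMAD7 at 0.75 to 1.15. TGFB1, near 0, ran from -0.065 to 0.11 with single ovaries left out. TGFBR1, TGFBR3 and SMAD3 changed sides as given in the report, and the TGFBR3 call was also lost with its most abundant transcript alone (-0.19, limma adjusted p = 0.138). The cause was not tested. All 21 named genes of the pathway lists kept their calls under 19 alternatives. Called transcripts of the 10 genes numbered 4 after the shift to a common median, 4 with TPM, and 4 to 8 with single ovaries left out (4 without follicular ovary 4 or luteal ovary 2). The ratio of TGFB3 to TGFB1 ran from 0.43 to 0.73 with single ovaries left out. The share differences ran from -1.26 to 4.21 points for TGFB1, -1.20 to 1.43 for TGFBR1, 4.601 to 6.45 for TGFBR3 and -6.11 to 2.45 for SMAD7.

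The labels do not say that replicate numbers pair the ovaries, and the correlations between ovaries did not settle it. Same-number correlations were 0.0258 to 0.199, over 0.1 in 2 of 5 pairs, and 5 of 10 ovaries correlated best with their own number. With a replicate block, 7 genes were called in place of 6, SMAD3 being added (limma adjusted p = 0.0485). Calls among all genes went from 6711 to 7020, storage and activation genes from 11 to 16 (7 higher and 9 lower in the luteal phase), signal regulators from 19 to 20, response genes from 18 to 19 and transcripts of the 10 genes from 7 to 5. For the ratios under the block, 5 pairs cannot give an exact p below 0.0625, so the differences of 0.60 (TGFB3 to TGFB1), 0.92 (TGFB3 to TGFB2), 1.43 (TGFBR2 to TGFBR1), -1.87 (TGFBR3 to TGFBR2), 1.39 (SMAD7 to SMAD3) and 1.37 (SMAD7 to SMAD4) could not pass.

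Relative to marker sums, added after the data were seen, directions reversed for TGFB3 against endothelium (-0.39, exact permutation p = 0.0556) and for SMAD2 (0.26), SMAD4 (0.52) and TGFBR3 (0.51) against smooth muscle. SMAD7 against endothelium (0.06) and TGFB3 against stroma (0.21) no longer passed. TGFBR2 kept its direction and call against the 3 marker sums used (endothelium, smooth muscle and stroma). KDR (1.59), the endothelial marker with the largest change, rose about as much as TGFBR2 (1.56). No ratio was computed against the corpus luteum markers, which summed to 5911 to 8085 in luteal and 150 to 200.3 in follicular ovaries.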

Other observations

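By the goat RefSeq annotation (ARS1.2), 5 annotated lncRNA transcripts lie within 100 kb of the 10 genes, near TGFB1, TGFBR1 and SMAD2. Of the 4 that passed the filter, limma called 0 at an adjusted p under 0.05 and 1 had an unadjusted p under 0.05. That was XR_001918456.1, near TGFBR1, with 0.678 ± 0.299 FPKM in luteal and 1.45 ± 0.647 in follicular ovaries (SD, n = 5 each) and -0.99 as log2 fold change (limma adjusted p = 0.119). XR_001919491.1 and XR_001919490.1, near TGFB1, had -0.55 and -1.23 (limma adjusted p = 0.349 and 0.207), and XR_311059.3, near SMAD2, had 0.16 (limma adjusted p = 0.725). SMAD2, SMAD4 and SMAD7 lie on the same chromosome in that annotation, as do TGFB3 and SMAD3.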
